A study of Homo sapiens with 6 samples.

Results

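TXNIP, thioredoxin and 8 further redox genes were followed in Kasumi-1 cells treated with I13, a histone deacetylase (HDAC) inhibitor. The members are TXNIP, TXN, TXNRD1, GLRX, PRDX1, PRDX2, GCLM, NQO1, HMOX1 and SOD2, 10 of the 32364 genes with a value, and each was found by matching its Ensembl identifier to its symbol in GENCODE release 29. TXNIP and GLRX were chosen by their change in these libraries, because both were lower with I13 whereas TXNIP is widely described as a gene that HDAC inhibitors raise. Their differences are therefore given as a description, with no test. The other 8 members were not selected on their change and were tested.

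The line Kasumi-1 was derived from acute myeloid leukemia with the t(8;21) translocation, which joins RUNX1 to RUNX1T1. The control group holds 3 libraries of cells kept for 48 h with the vehicle, DMSO, and the I13 group holds 3 libraries of cells kept for 48 h with 0.5 µM I13. Every library is of the same line, nothing in the labels says whether the replicates were separate cultures, and p-values therefore measure only the spread between these libraries. Levels are FPKM, the fragments on a gene per kilobase of its exons, scaled to a total of mapped fragments for the library. A comparison of levels between genes depends on the exon length used for each.

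Thioredoxin (TXN) is a small protein that reduces disulfide bonds in other proteins, and thioredoxin reductase 1 (TXNRD1) recharges it with electrons from NADPH. TXNIP is an alpha-arrestin that binds reduced thioredoxin and restrains it, and its transcription follows glucose through MondoA and its relatives at a carbohydrate response element. Peroxiredoxins spend thioredoxin's electrons on peroxides, glutaredoxins draw on glutathione instead, and the transcription factor NRF2 raises many of these genes when its inhibitor KEAP1 is modified by oxidants.

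The depth, worked out from the deposited values as the divisor behind the FPKM, was between 15281052 and 17221345 fragments per library. The fragments recovered over all genes summed to slightly more, 15476049 to 17443933 per library. On the first principal component of 4133 genes at or above a mean of 10 FPKM, which held 43.3% of the variance, control replicate 3 and I13 replicate 2 lay apart from the other 4 libraries, while the second component, with 20.5%, separated control from I13. Differences are therefore given also for the 4 libraries without this pair and for the pair alone. All 8 myeloid blast markers, MPO and CD33 among them, were expressed, with a summed level of 18148 to 19119 FPKM in control and 16106 to 18767 FPKM with I13. Of 9 erythroid markers, whose cells are rich in PRDX2, 6 were matched to a value. HBB, HBG1 and AHSP were not matched and could not be assessed. The 6 were under 1 FPKM, and their sum was at most 0.247 FPKM in control and 0.223 FPKM with I13.

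The windows upstream of the start site are shown for the members in which a motif tied to their known regulation was found and for GLRX, the other gene that was picked. They are the 250 bases before a start in RefSeq (GRCh38.p14), 5′ to 3′ on the strand of the gene. Of the 10 members, 8 had such windows, 13 in all. PRDX1 and HMOX1 were not matched. Capitals mark the motifs searched on both strands, which are the carbohydrate response element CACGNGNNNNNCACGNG, the antioxidant response element core TGACNNNGC, the CCAAT box CCAAT, the TATA box TATAAA and the E-box CACGTG.
TXNIP, chr1:145996580-145996829, minus strand: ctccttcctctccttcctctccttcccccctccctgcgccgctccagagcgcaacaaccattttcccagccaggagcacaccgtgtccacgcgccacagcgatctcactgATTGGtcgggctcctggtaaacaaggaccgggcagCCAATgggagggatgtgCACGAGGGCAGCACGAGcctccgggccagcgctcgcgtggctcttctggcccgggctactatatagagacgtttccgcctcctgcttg
GLRX, chr5:95822727-95822976, minus strand: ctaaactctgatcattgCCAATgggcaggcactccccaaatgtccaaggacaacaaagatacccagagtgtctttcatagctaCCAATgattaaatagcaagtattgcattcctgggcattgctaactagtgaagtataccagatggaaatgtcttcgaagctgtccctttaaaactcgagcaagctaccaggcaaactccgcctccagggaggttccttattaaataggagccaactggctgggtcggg
GCLM, chr1:93909431-93909680, minus strand: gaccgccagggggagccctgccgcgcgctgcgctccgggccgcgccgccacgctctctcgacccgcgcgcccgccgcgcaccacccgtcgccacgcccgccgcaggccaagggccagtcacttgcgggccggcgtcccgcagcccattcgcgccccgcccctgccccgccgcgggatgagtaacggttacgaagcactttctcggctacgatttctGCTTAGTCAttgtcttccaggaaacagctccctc
TXNRD1, chr12:104215529-104215778, plus strand: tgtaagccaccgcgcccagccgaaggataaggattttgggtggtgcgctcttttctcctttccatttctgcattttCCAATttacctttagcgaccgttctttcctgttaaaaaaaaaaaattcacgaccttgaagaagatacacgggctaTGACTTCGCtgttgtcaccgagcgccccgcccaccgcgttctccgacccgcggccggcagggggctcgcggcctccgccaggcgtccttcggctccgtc

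The TXNIP window held a carbohydrate response element whose first base lay at -88 from the start, and 2 CCAAT boxes, at -140 and -105. This element was found in 16 of 35116 windows (0.0456%), whereas a CCAAT box was found in 11240 of them. The GLRX window held 2 CCAAT boxes, at -233 and -167, and none of the other motifs. An antioxidant response element core, present in 10.9% of all windows, lay at -34 in GCLM, which encodes the regulatory subunit of the enzyme that limits glutathione synthesis, and at -99 in TXNRD1, whose window also had a CCAAT box at -174. A second TXNRD1 start had a core at -102, and the window of a second TXNIP start held none of the motifs. In the NQO1 window no motif was found. The TXN window had a TATA box that matched on both strands in overlapping bases, a motif seen in 10.7% of windows. The E-box was found in 6.34% of all windows and in none of the 13. A match of letters is a description and does not show binding.

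The members spanned 3 orders of magnitude. TXN was the most abundant, with a mean of 191 FPKM over the 6 libraries, and 99.2% of the genes tested lay below it. PRDX1 followed at 162 FPKM, then TXNIP at 64.7 and TXNRD1 at 31.4 FPKM. SOD2, the manganese superoxide dismutase of mitochondria, stood at 6.09 FPKM and GLRX at 5.17 FPKM, and the ranges of these neighbours overlapped. The same was true of NQO1, a quinone reductase, at 2.80 FPKM and GCLM at 2.68 FPKM. PRDX2 was at 0.716 FPKM and HMOX1, the inducible heme oxygenase, at 0.120 FPKM. For all other neighbours in this order the ranges over the 6 libraries did not overlap.

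**Figure D1:**
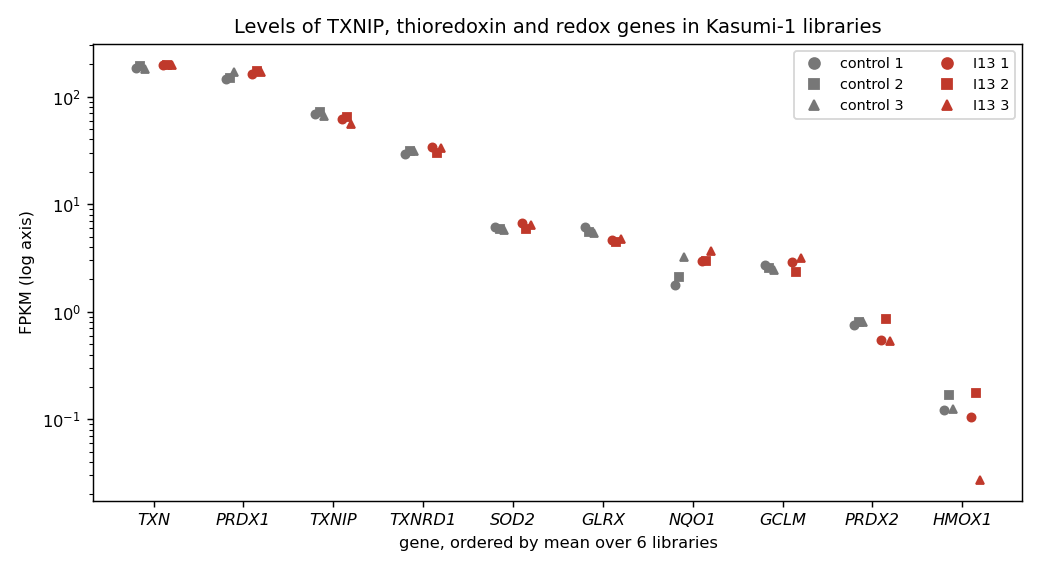
FPKM of the 10 members on a log axis in each of the 6 libraries, with control in grey and I13 in red and replicate 1, 2 and 3 as circle, square and triangle. The members run from TXN at a mean of 191 FPKM to HMOX1 at 0.120 FPKM, and the control and I13 points of a gene lie close together against this range.

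TXNIP and GLRX were lower in each I13 library than in each control library. TXNIP (ENSG00000265972, chr1:145992435-145996600, minus strand) was at 68.7, 71.7 and 65.5 FPKM in control replicates 1, 2 and 3 and at 61.4, 64.9 and 55.7 FPKM in I13 replicates 1, 2 and 3. The groups did not overlap, but I13 replicate 2 and control replicate 3 were next to each other. The mean was 68.6 ± 3.14 FPKM in control and 60.7 ± 4.66 FPKM with I13 (SD, n = 3 each), a ratio of 0.884 and a log2 fold change of -0.18, on 3085 to 4463 fragments per library. It was -0.26 in the 4 libraries and -0.01 in the pair that stood apart, a difference that the pair hardly showed.

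GLRX (ENSG00000173221, chr5:95751319-95823005, minus strand) encodes glutaredoxin of the cytosol, which removes glutathione from protein thiols. Its level was 6.15, 5.53 and 5.42 FPKM in control replicates 1, 2 and 3 and 4.68, 4.47 and 4.79 FPKM in I13 replicates 1, 2 and 3. The lowest control library was above the highest I13 library. The mean was 5.70 ± 0.393 FPKM in control and 4.64 ± 0.163 FPKM with I13 (SD, n = 3 each), a ratio of 0.815 and a log2 fold change of -0.29. Unlike that of TXNIP, this value was close in the 4 libraries, at -0.30, and in the pair, at -0.27. Values lower without overlap were found for 4.64% of the 18726 genes tested, and since the pair of genes was picked on this contrast nothing is read from the count.

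The 8 members that were not picked gave no call. None reached an adjusted p under 0.05 by limma, as for the whole table, where 0 of 18726 genes (0%) did and the smallest adjusted p was 0.275. At an unadjusted p under 0.05, limma called 963 genes (5.14%), 478 higher (2.55%) and 485 lower (2.59%), and none of the 8 members was among them. By 2 other fits the adjusted threshold was passed by 9 genes, with limma without a variance trend, and by 6 of 13852 genes (0.0433%), with voom on recovered fragments. None of the members tested was among those called by voom. Of the 8, 6 had a log2 fold change above 0 and 2 below 0, beside 9702 and 9024 of all genes tested. Their median was 0.09, beside 0.01 over all genes tested.

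**Figure D2:**
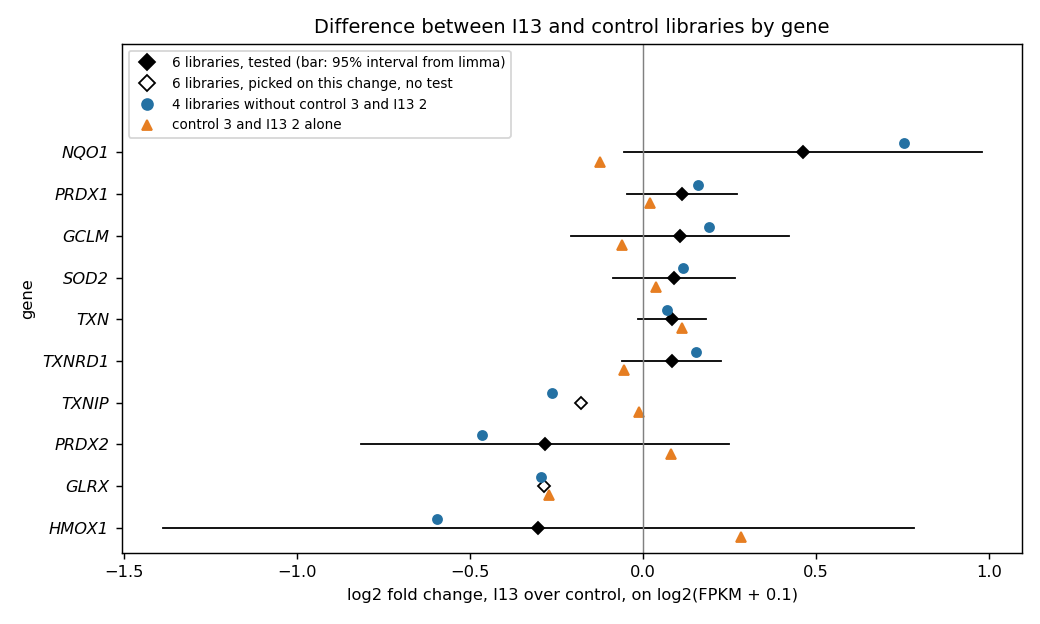
Log2 fold change of each member, I13 over control, with the 95% interval from limma for the 8 members tested and open diamonds without an interval for TXNIP and GLRX. Circles give the 4 libraries without control replicate 3 and I13 replicate 2 and triangles that pair alone. Every interval includes 0, and for NQO1 the circle lies at 0.75 and the triangle at -0.13.

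TXN (ENSG00000136810, chr9:110243811-110256640) was the only tested member whose groups did not overlap. It was at 183, 192 and 182 FPKM in control replicates 1, 2 and 3 and at 198, 197 and 195 FPKM in I13 replicates 1, 2 and 3. The lowest I13 library exceeded the highest control library, as was so for 4.88% of all genes tested. On 3404 to 3758 fragments per library, I13 over control gave a log2 fold change of 0.08 (SE 0.042, 95% interval -0.01 to 0.18), which did not pass the test (limma, unadjusted p = 0.0833, adjusted p = 0.955). It was 0.07 in the 4 libraries and 0.11 in the pair.

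Relative to the thioredoxin that it binds, TXNIP was lower in every I13 library. Its FPKM divided by that of TXN was 0.375, 0.374 and 0.359 in control replicates 1, 2 and 3 and 0.310, 0.329 and 0.286 in I13 replicates 1, 2 and 3. The mean was 0.370 ± 0.00919 in control and 0.308 ± 0.0219 with I13 (SD, n = 3 each). Since TXNIP was picked on this contrast, the ratio is a description. Both are levels of mRNA, and the ratio says nothing of the proteins.

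TXNRD1 (ENSG00000198431, chr12:104215779-104350305) was at 29.4, 30.9 and 31.1 FPKM in control replicates 1, 2 and 3 and at 33.9, 29.9 and 33.1 FPKM in I13 replicates 1, 2 and 3. The groups overlapped through I13 replicate 2, on 3351 to 3625 fragments per library. With I13 the log2 fold change was 0.08 (95% interval -0.06 to 0.23, limma, unadjusted p = 0.216, adjusted p = 0.983). It was 0.15 in the 4 libraries (limma, unadjusted p = 0.0228, adjusted p = 0.523) and -0.06 in the pair. In the 4 libraries 8.58% of all genes tested passed the unadjusted threshold.

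**Figure D3:**
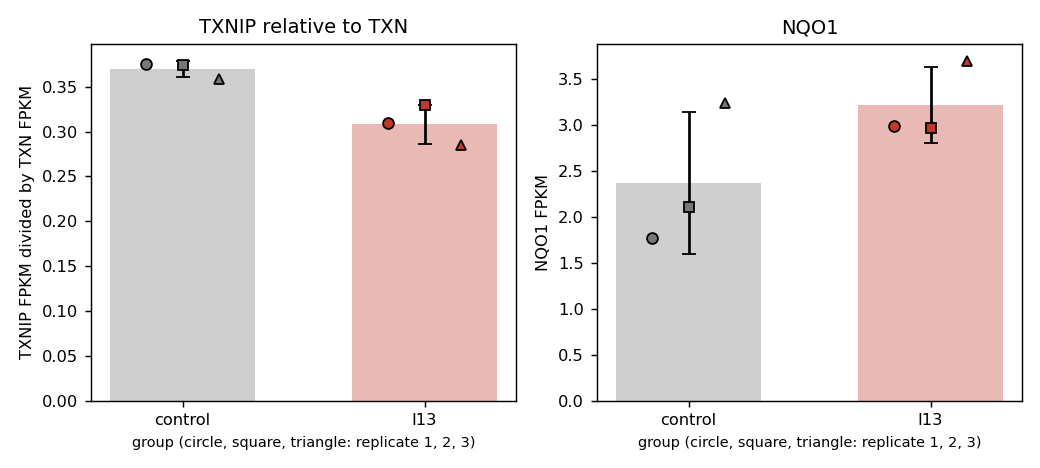
Left, FPKM of TXNIP divided by FPKM of TXN, and right, FPKM of NQO1, with bars for the mean, lines for the SD and circle, square and triangle for replicates 1, 2 and 3 of each group. The ratio lies between 0.359 and 0.375 in control and between 0.286 and 0.329 with I13, while control replicate 3 of NQO1, at 3.25 FPKM, lies above I13 replicates 1 and 2.

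PRDX1 and PRDX2 are both peroxiredoxins of the cytosol that use thioredoxin, but their levels were far apart. PRDX1 (ENSG00000117450, chr1:45511036-45523047) was at 147, 150 and 171 FPKM in control replicates 1, 2 and 3 and at 161, 173 and 171 FPKM in I13 replicates 1, 2 and 3. Control replicate 3 lay within the I13 range, and each value rested on 3864 to 4404 fragments. Its log2 fold change was 0.11 (95% interval -0.05 to 0.27, limma, unadjusted p = 0.143, adjusted p = 0.983). In the 4 libraries it was 0.16 (limma, unadjusted p = 0.0256, adjusted p = 0.530) and in the pair 0.02.

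PRDX2 (ENSG00000167815, chr19:12796820-12801859) is a major protein of red blood cells. It was at 0.749, 0.807 and 0.808 FPKM in control replicates 1, 2 and 3 and at 0.540, 0.859 and 0.532 FPKM in I13 replicates 1, 2 and 3, on 17 to 30 fragments per library. I13 replicates 1 and 3 were below every control library and I13 replicate 2 was above them. The log2 fold change was -0.28 (95% interval -0.82 to 0.25, limma, unadjusted p = 0.249, adjusted p = 0.983). It was -0.48 without I13 replicate 2 (limma, unadjusted p = 0.0439, adjusted p = 0.721), where 6.92% of all genes tested passed the unadjusted threshold. It was -0.19 without I13 replicate 1 (limma, unadjusted p = 0.480) and -0.18 without I13 replicate 3 (limma, unadjusted p = 0.484). The ratio of summed fragments, scaled to depth, was 0.823 with an exact 95% interval for counting error of 0.586 to 1.15. By these FPKM, PRDX1 was 227 times as abundant as PRDX2 over the 6 libraries, with a range of 186 to 321. Both share exon bases with a gene on the opposite strand, and the strand setting of the counting is not given. Its part in this ratio was not tested.

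Among the NRF2 target genes, NQO1 had the largest log2 fold change of the members. NQO1 (ENSG00000181019, chr16:69706996-69726951) was at 1.77, 2.11 and 3.25 FPKM in control replicates 1, 2 and 3 and at 2.99, 2.97 and 3.70 FPKM in I13 replicates 1, 2 and 3. Control replicate 3 was above 2 of the 3 I13 libraries. On 99 to 184 fragments per library, I13 over control gave a log2 fold change of 0.46 (SE 0.22, 95% interval -0.06 to 0.98), which did not pass the test (limma, unadjusted p = 0.0734, adjusted p = 0.954). With voom the unadjusted p was 0.0116 and the adjusted p was 0.679. Leaving out control replicate 3 gave 0.70 (limma, unadjusted p = 0.00578, adjusted p = 0.611), and leaving out control replicate 1 gave 0.28 (limma, unadjusted p = 0.254). In the 4 libraries it was 0.75, and in the pair it was -0.13.

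GCLM (ENSG00000023909, chr1:93885205-93909456) was at 2.71, 2.57 and 2.43 FPKM in control replicates 1, 2 and 3 and at 2.87, 2.32 and 3.19 FPKM in I13 replicates 1, 2 and 3. I13 replicate 2 was the lowest of the 6 libraries and I13 replicate 3 the highest, on 210 to 264 fragments. Its log2 fold change was 0.11 (95% interval -0.21 to 0.42, limma, unadjusted p = 0.450, adjusted p = 1.00), with 0.19 in the 4 libraries and -0.06 in the pair. It was 0.23 without I13 replicate 2 and 0.0093 without I13 replicate 3.

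HMOX1 (ENSG00000100292, chr22:35380361-35394214), which opens the heme ring and is among the strongest targets of NRF2 and BACH1 in many cells, was near the limit of detection. It was at 0.121, 0.170 and 0.125 FPKM in control replicates 1, 2 and 3 and at 0.104, 0.174 and 0.0272 FPKM in I13 replicates 1, 2 and 3, on 1 to 7 fragments per library. A difference was not detectable at this depth, since the ratio of summed fragments was 0.751 with an exact 95% interval of 0.327 to 1.67. On the log2 scale the change was -0.30 (limma, unadjusted p = 0.531) with a pseudocount of 0.1, -0.67 with 0.01 and -0.05 with 1, and with a library left out it lay between -0.56, without I13 replicate 2, and -0.0045, without I13 replicate 3.

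SOD2 (ENSG00000112096, chr6:159669057-159745186) was at 6.09, 5.90 and 5.70 FPKM in control replicates 1, 2 and 3 and at 6.63, 5.85 and 6.36 FPKM in I13 replicates 1, 2 and 3. Here too the groups overlapped through I13 replicate 2. Its log2 fold change was 0.09 (95% interval -0.09 to 0.26, limma, unadjusted p = 0.274, adjusted p = 0.983), with 0.11 in the 4 libraries and 0.04 in the pair. The deposited values gave whole fragments with an exon length of 18985 bases, whereas GENCODE gives 16493, so the exon length behind this level differs from GENCODE, which it does for none of the other 9 members. A second gene with the symbol SOD2 in GENCODE shares 845 exon bases with it and was not matched to a value.

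Across the members, a log2 fold change of opposite sign in the 4 libraries and in the pair was found for 5 of the 10, TXNRD1, PRDX2, GCLM, NQO1 and HMOX1. TXN, PRDX1, SOD2, GLRX and TXNIP kept their sign. For TXN, GLRX and TXNIP, whose groups do not overlap, the sign could not have turned. What sets control replicate 3 and I13 replicate 2 apart is not given by the labels, and its part in these values was not tested.

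The wider thioredoxin system gave no call. Of its 22 tested genes other than TXNIP, 0 were higher and 0 lower at an unadjusted p under 0.05 by limma, with a median log2 fold change of -0.01. Voom called 1 of 20 at the unadjusted threshold, beside 746 of 13852 genes (5.39%), and 0 at the adjusted threshold. Beside PRDX1, the peroxiredoxins had control means of 189 ± 6.52 FPKM for PRDX5, 98.4 ± 2.12 for PRDX6, 69.2 ± 7.89 for PRDX4, 57.3 ± 1.47 for PRDX3 and 0.788 ± 0.0337 for PRDX2 (SD, n = 3). PRDX2 was the only one of the 6 under 1 FPKM. The largest log2 fold change of the list was that of SRXN1, the sulfiredoxin that repairs overoxidized peroxiredoxins, at 0.92 (95% interval -0.33 to 2.17, limma, unadjusted p = 0.125), but it rested on 0 to 15 fragments per library and on a listed value of 0 in control replicate 3. The smallest was that of PRDX2.

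The glutathione arm gave no call either. Of 25 tested genes other than GLRX, 0 were higher and 0 lower (limma, unadjusted p under 0.05), and the median log2 fold change was 0.03. Voom called 0 of 25. The limma count moved with the libraries used, as did that over all 18726 genes. Without control replicate 3, 3 were higher and 1 lower, beside 605 and 597 of all genes. Without I13 replicate 2, 0 were higher and 2 lower, beside 692 and 603. In the 4 libraries 5 were higher and 2 lower, beside 844 and 763. GPX1, the glutathione peroxidase of the cytosol, was at 593 ± 84.1 FPKM in control and 623 ± 34.8 FPKM with I13 (SD, n = 3 each). The other glutaredoxins had positive values, with log2 fold changes of 0.10 for GLRX2, 0.09 for GLRX3 and 0.07 for GLRX5, and none passed the test (limma, unadjusted p = 0.311, 0.191 and 0.338). The values of the list ran from -0.31 for GPX3, a secreted peroxidase with 11 to 33 fragments per library, to 0.21 for GSTM4, a glutathione transferase.

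NRF2 targets gave no call. Of 23 tested genes, 15 had a log2 fold change above 0 and 8 below 0, beside 9702 and 9024 of all genes tested. The median of the list was 0.08, beside 0.01 over all genes tested. Its values ran from -0.30 for HMOX1 to 0.92 for SRXN1, on 1 to 7 and 0 to 15 fragments per library. At an unadjusted p under 0.05 by limma, 0 of the 23 were higher and 0 lower. This limma count moved with the libraries used. In the 4 libraries, where 844 of 18726 genes were higher and 763 lower, it was 6 higher and 0 lower. Without control replicate 3 it was 4 and 0, beside 605 and 597 of all genes. Without I13 replicate 2 it was 1 and 1, beside 692 and 603. Voom on the 6 libraries called 1 higher and 1 lower of 21, beside 357 higher and 389 lower of 13852 genes. Of the 9 regulators of NRF2 and BACH1 tested, 0 were higher and 0 lower by limma, with a median of 0.05. NFE2L2, which encodes NRF2, had the smallest value, -0.09, with 7.90 ± 0.619 FPKM in control and 7.42 ± 0.776 FPKM with I13 (SD, n = 3 each, limma, unadjusted p = 0.393). MAFK, a partner of NRF2 and BACH1 on DNA, had the largest, 0.22 (limma, unadjusted p = 0.105), and was the 1 of 9 that voom called higher (unadjusted p = 0.0474, adjusted p = 0.914). KEAP1 was at 0.12 (limma, unadjusted p = 0.145).

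Superoxide and peroxide removal and the handling of heme and iron were also without a call by limma or voom, with 0 of 8 and 0 of 10 tested genes at an unadjusted p under 0.05 and medians of 0.05 and 0.04. SOD1, the copper and zinc superoxide dismutase, was at 137 ± 3.95 FPKM in control and 139 ± 0.721 FPKM with I13, and catalase (CAT) at 68.3 ± 3.71 and 65.9 ± 5.08 FPKM (SD, n = 3 each). The values of the first list ran from -0.06 for TXN2, the thioredoxin of mitochondria, to 0.09 for SOD2. Those of the second ran from that of HMOX1 to 0.11 for FTL, the light chain of ferritin.

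The relatives and regulators of TXNIP gave no call. Of 6 tested alpha-arrestins and MondoA regulators other than TXNIP, 0 were higher and 0 lower by limma and by voom at an unadjusted p under 0.05, with a median log2 fold change of -0.06. ARRDC4, like TXNIP a target of MondoA, had the largest value, 0.12 (95% interval -0.14 to 0.37), with 2.76 ± 0.247 FPKM in control and 3.00 ± 0.225 FPKM with I13 (SD, n = 3 each, limma, unadjusted p = 0.314). ARRDC1 had the smallest, -0.12 (limma, unadjusted p = 0.139). MLXIP, which encodes MondoA, was at 21.0 ± 0.0625 FPKM in control and 20.3 ± 0.799 FPKM with I13 (limma, unadjusted p = 0.389), while MLXIPL, which encodes its relative ChREBP, was listed at 0 in all 6 libraries.

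From the list of 16 genes often induced by HDAC inhibitors, to which TXNIP belongs, those under a mean of 0.1 FPKM were not tested. It held 11 tested genes beside TXNIP. Of these, 10 had a log2 fold change below 0 and 1 above 0, with a median of -0.13, where 9024 of all genes tested lay below 0 and 9702 above. At an unadjusted p under 0.05 by limma 2 were lower and 0 higher, beside 2.59% lower and 2.55% higher over all genes tested. None passed the adjusted threshold by limma or by voom. The list was chosen with earlier results of these libraries known, so this is a description.

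GSN, which encodes the actin-severing protein gelsolin, was at 52.4, 50.5 and 51.2 FPKM in control replicates 1, 2 and 3 and at 39.8, 45.4 and 40.2 FPKM in I13 replicates 1, 2 and 3. The groups did not overlap, and the log2 fold change was -0.30 (95% interval -0.44 to -0.16, limma, unadjusted p = 0.00162, adjusted p = 0.540). H1F0, which encodes the linker histone H1.0, was at 15.6, 13.4 and 13.7 FPKM in control and 11.8, 11.9 and 12.4 FPKM in I13 replicates 1, 2 and 3, with a log2 fold change of -0.24 (95% interval -0.41 to -0.06, limma, unadjusted p = 0.0138, adjusted p = 0.875). Every I13 library was again below every control library. CDKN1A, the cell cycle inhibitor p21, had the only value above 0, 0.21 (95% interval -0.31 to 0.72), on 20 to 27 fragments per library. KLF2, a transcription factor, had the smallest, -0.45 (95% interval -1.55 to 0.65), on 4 to 19 fragments.

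**Figure D4:**
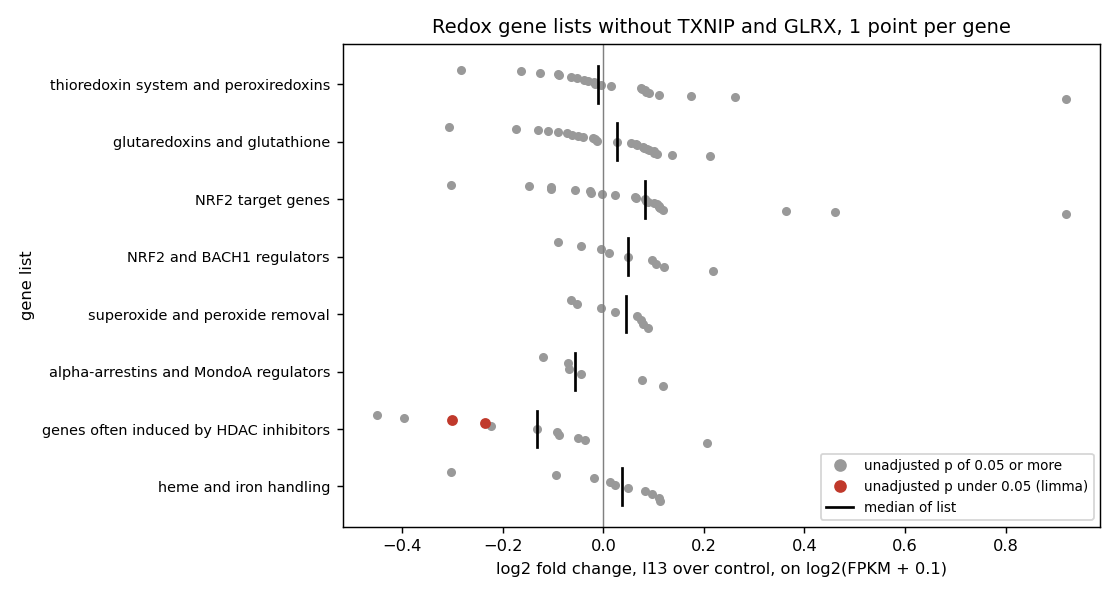
Log2 fold change of every tested gene of the 8 lists, I13 over control, with TXNIP and GLRX left out, 1 point per gene and a black line at the median of each list. Red points passed an unadjusted p under 0.05 by limma, and the only 2 are GSN and H1F0 in the list of genes often induced by HDAC inhibitors.

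Of the 4 markers of mature monocytes, 2 could be tested, and both were lower with I13 at an unadjusted p under 0.05, beside 2.59% of all genes tested, but not at the adjusted threshold. The summed level of the 4 was 10.9 to 12.6 FPKM in control and 7.26 to 8.99 FPKM with I13. CSF1R, a growth factor receptor, had a log2 fold change of -0.46 (limma, unadjusted p = 0.00244, adjusted p = 0.583) and LYZ, lysozyme, one of -0.60 (limma, unadjusted p = 0.00216, adjusted p = 0.570), while CD14 had at most 1 fragment in a library and FCGR3A was listed at 0 in every library. Their part in the levels of TXNIP and GLRX was not tested. Of the 8 blast markers, 2 had a log2 fold change above 0 and 6 below 0, beside 9702 and 9024 of all genes tested. The median of these markers was -0.05. At an unadjusted p under 0.05 limma called CD33 higher (0.20, unadjusted p = 0.0166, adjusted p = 0.890), beside 2.55% of all genes tested. Voom called CD33 higher and MPO lower, beside 357 higher and 389 lower of 13852 genes. The T cell markers summed to 1.92 to 2.70 FPKM, with CD3D at -0.90 on 2 to 6 fragments (limma, unadjusted p = 0.0205, adjusted p = 0.890), the B cell markers to 4.44 to 5.91 FPKM, and the 3 fibroblast markers used were listed at 0. In bulk libraries fewer cells of a type and less RNA per cell cannot be told apart.

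The genes whose pattern over the 6 libraries was most like that of TXNIP were ranked by Pearson's r on log2(FPKM + 0.1) among 3912 protein-coding genes at or above a mean of 10 FPKM. They were ARHGDIB at 0.97, ALAS1 at 0.97, DAP3 at 0.97, CITED2 at 0.96 and MRPS36 at 0.96, and the most opposed were ATP1B3 at -0.99, UBE2L6 at -0.98 and DFFA at -0.97. For GLRX the highest were FLI1 at 0.99, SERPINB1 at 0.98, SOX4 at 0.98, SEC31A at 0.97 and TESMIN at 0.97, and the lowest were POMGNT2 at -0.99, SMYD5 at -0.97 and ERI3 at -0.97. TXNIP and GLRX themselves had an r of 0.63, and no gene is on both lists. The points are 3 control and 3 I13 libraries, so each r holds the difference between the groups, and these values are a description of the 6 libraries.

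Reads of other genes could enter some of these values, and reads on shared exon bases could be left out of them, depending on the counting. Neither was tested. Of the 10 members, 4 shared exon bases with another annotated gene. PRDX1 shared 24.9% of its exon bases with MMACHC on the opposite strand, PRDX2 shared 14.1% and NQO1 17.7% with an antisense gene each, and SOD2 shared 1.81% with WTAP on the opposite strand. MMACHC had 215 to 283 fragments per library against at least 3864 for PRDX1. An intron of TXNRD1 holds RPL18AP3, a processed pseudogene on the same strand with 3653 to 4451 fragments, and no exon bases are shared. TXNIP, TXN, GCLM and HMOX1 were overlapped by no annotated gene. Of 16 processed pseudogenes named after members, 6 were matched to a value, and none of these had more than 4 fragments in a library.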

How the data were processed

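Total RNA was extracted with Trizol and libraries were made with a TruSeq Stranded mRNA kit, per the labels. The authors deposited FPKM values per Ensembl gene and library. The submitters' processing notes name Trimmomatic, HISAT2, Cufflinks, HTSeq and the build hg38, without versions. The annotation release, like the strand setting, is not given in the sources used here.

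Identifiers were matched to GENCODE release 29 (GRCh38), which names 32244 of 32364. Whole fragments were recovered from FPKM and exon lengths for 25773 of 27002 genes above 0 (95.4%) within a tolerance of 0.01, and for 1322 more from the common step of their values. FPKM were tested, unscaled, with limma 3.58.1 in R 4.3.3 on log2(FPKM + 0.1), as a model of 2 groups without a block, with the variance trend on, for 18726 genes whose mean reached 0.1 FPKM. Every log2 fold change is on this scale unless another setting is named, and the scale understates changes of low genes. Calls needed a Benjamini-Hochberg adjusted p under 0.05, and the table-wide count also a log2 fold change of 0.58 or more in size. Voom was run on the recovered fragments, for 13852 genes whose mean reached 10 of them. Counting intervals are exact, at 95%, and cover counting error only. A listed 0 allows up to 3 fragments. The scripts were tested on simulated data. Other steps used Python 3.11.15, pandas 2.3.3 and scipy 1.17.1.

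The members and gene lists were chosen with earlier results of these data known. The genes named are all members, the genes of each list with an unadjusted p under 0.05 or the largest or smallest fold change, the genes most and least correlated with TXNIP and GLRX, overlapping genes and pseudogenes. PRDX3, PRDX4, PRDX5, PRDX6, GPX1, GLRX2, GLRX3, GLRX5, KEAP1, MLXIP, MLXIPL, SOD1, CAT, MPO, CD14 and FCGR3A were named after their values had been seen. Alternatives were other pseudocounts and filters, median scaling, quantile normalization, no trend, voom, a replicate block, a term for the library pair, 4 libraries without it, the pair alone, and each library left out.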

Additional observations from a re-analysis of the deposited data

How the results depend on the processing

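TXNIP and GLRX kept a negative log2 fold change under every alternative. Their groups do not overlap, so leaving out libraries could not turn this sign, and nothing is read from it. For TXNIP the log2 fold change was between -0.23 and -0.12 with a library left out. It was -0.012 in control replicate 3 and I13 replicate 2, the pair that stood apart, alone. For GLRX it was between -0.32 and -0.23. Of the 8 members tested, none passed an unadjusted p under 0.05, but 1 did with voom (NQO1), 1 with the replicate block (NQO1), 2 with a term for the library pair (TXN and PRDX1), 3 in the 4 libraries without the pair (TXNRD1, PRDX1 and NQO1) and between 0 and 2 with a library left out. The 2 were PRDX1 and NQO1 without control replicate 3, and TXNRD1 and PRDX2 without I13 replicate 2. No adjusted p of these 8 passed in any of them. In the pair alone the sign turned for TXNRD1 (-0.056), PRDX2 (0.080), GCLM (-0.061), NQO1 (-0.13) and HMOX1 (0.28). Genes with an adjusted p and the fold threshold were 9 without a trend and 5 with voom, against 0. Genes at an unadjusted p were 280 higher and 302 lower with a minimum mean of 1 FPKM, where fewer genes are tested, 844 and 763 in the 4 libraries, and 693 higher and 734 lower with the term for the pair. The cause of the last 4 counts was not tested. In the 4 libraries, where 844 of 18726 genes were higher and 763 lower, 6 of 23 NRF2 targets were higher and 0 lower, 5 and 2 of 25 glutathione genes, and 3 and 1 of 22 genes of the thioredoxin system. Without control replicate 3, where 605 of 18726 were higher and 597 lower, these counts were 4 and 0, 3 and 1, and 2 and 0. Without I13 replicate 2, where 692 were higher and 603 lower, they were 1 and 1, 0 and 2, and 1 and 2. With a library left out the log2 fold change was 0.07 to 0.11 for TXN, 0.05 to 0.14 for TXNRD1, 0.07 to 0.18 for PRDX1, -0.48 to -0.18 for PRDX2, 0.0093 to 0.23 for GCLM, 0.28 to 0.70 for NQO1, -0.56 to -0.0045 for HMOX1 and 0.05 to 0.14 for SOD2. The deviations of same-numbered libraries from their group means had correlations of 0.32, -0.38 and -0.30. Control replicate 3 and I13 replicate 2, which stood apart, weigh on these values. They therefore cannot decide whether same-numbered libraries share more than a number. With the replicate block the counts were 447 higher and 415 lower, and the number of calls at the adjusted p stayed at 0. The depth limits HMOX1, with 1 to 7 fragments per library, PRDX2, with 17 to 30, and SRXN1, with 0 to 15.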
